A study of Mus musculus with 4 samples.

Results

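1700016P03Rik is the mouse gene whose transcript carries the hairpins of miR-212 and miR-132, and its RNA averaged 4.84 CPM (reads per 1000000 counted reads) in Unc80 G/G olfactory bulbs and 2.45 CPM in Unc80 S/S olfactory bulbs, a 1.98-fold difference. It was taken by its symbol as 1 gene of the 15818 in the deposited table, and it was picked because of this contrast, so its own values are given as a description with no test. Olfactory bulb RNA of Unc80 G/G mice (2 libraries) and Unc80 S/S mice (2 libraries) was sequenced, with 35465913 to 38051810 total reads each. Unc80 encodes a subunit of the NALCN sodium leak channel complex, and A-to-I editing of its RNA turns 1 serine codon into a glycine codon. Unc80 G/G mice carry the edited state in the genome (AGC to GGC, glycine), and Unc80 S/S mice carry a serine codon that cannot be edited (AGC to TCC). Both alleles are homozygous CRISPR/Cas9 knock-ins made in embryos with B6D2F1 donors, and the mice were males of 2 to 5 months. Each library was described as a pool of 3 mice. No wild type group was sequenced, so a difference between the genotypes cannot be assigned to either allele, and carried-over differences between the knock-in lines cannot be told apart from the codon.

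miR-132 and miR-212 are made from 1 primary transcript that neurons transcribe in response to activity and neurotrophins, through the transcription factor CREB bound upstream of the hairpins. Drosha and DGCR8 cut the hairpins out of the transcript, Dicer trims them, and an Argonaute protein then uses the mature strand to find matching sites in 3′ UTRs. miR-132 is known for promoting dendrite and spine growth, including in the newborn neurons that settle in the olfactory bulb of the mouse. The miRNAs themselves were not measured here. The table counts RNA of the host gene, so no value below is a level of either miRNA.

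In GENCODE M21 on GRCm38, 1700016P03Rik is a non-coding gene on the plus strand, chr11:75172560-75177633. Its 3 exons span chr11:75172560-75172597, chr11:75173978-75174161 and chr11:75176993-75177633, for 863 exon bases. Both hairpins lie in intron 1, which is 1380 bases long. Mir212 is at chr11:75173388-75173478, 790 bases after exon 1, and Mir132 follows after a gap of 203 bases at chr11:75173682-75173747, 230 bases before exon 2. The hairpins are printed because their order and arms show what the transcript carries, with the mature arms in capitals (RefSeq sequences, GRCm38.p6):
miR-212 hairpin: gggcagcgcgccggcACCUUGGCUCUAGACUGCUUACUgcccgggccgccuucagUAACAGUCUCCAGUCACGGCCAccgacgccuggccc
miR-132 hairpin: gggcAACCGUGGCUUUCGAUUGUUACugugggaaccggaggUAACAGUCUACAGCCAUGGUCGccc

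The mature arms decide which mRNAs are recognised, mainly through the seed at bases 2 to 8, which is in capitals here:
miR-212-3p: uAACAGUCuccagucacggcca
miR-132-3p: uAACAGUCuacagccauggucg
miR-212-5p: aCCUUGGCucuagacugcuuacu
miR-132-5p: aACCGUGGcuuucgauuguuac
The 3p arms share the seed AACAGUC, and no other of the 1738 mature mouse miRNAs in the RefSeq table has it. They are identical at 17 of 22 positions, including the first 9, and differ by C10A, U14C, C17U, C20U and A22G (miR-212-3p base first, counted from the 5′ end). The 5p arms have seeds that differ from each other and from the 3p seed.

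Exon 3 holds 641 of the 863 exon bases (74.3%), and all of it lies within an exon of Ovca2, a protein-coding gene on the minus strand (chr11:75175942-75178835). These 641 bases are 24.0% of the exon bases of Ovca2. The study's methods name a stranded library kit and the labels a different kit, and whether reads were counted by strand is not given. It is therefore not known whether reads of the host and of Ovca2 were told apart over exon 3. Ovca2 averaged 12.2 CPM in Unc80 G/G and 13.3 CPM in Unc80 S/S (log2 ratio −0.13). The host was 2.40 CPM higher in Unc80 G/G, while Ovca2 was 1.16 CPM lower. Summed over both genes, the level was 17.0 CPM in Unc80 G/G and 15.8 CPM in Unc80 S/S (log2 ratio 0.11), and the host made up 28.5% of the sum in Unc80 G/G and 15.5% in Unc80 S/S. The sum contains the host, which was picked on this contrast, so its direction is no separate evidence. Ovca2 made up most of the sum and had a ratio near 0, so a ratio far below that of the host was fixed in advance. The sum therefore tells nothing of how reads were assigned. How reads over exon 3 were assigned to either gene was not tested.

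**Figure D1:**
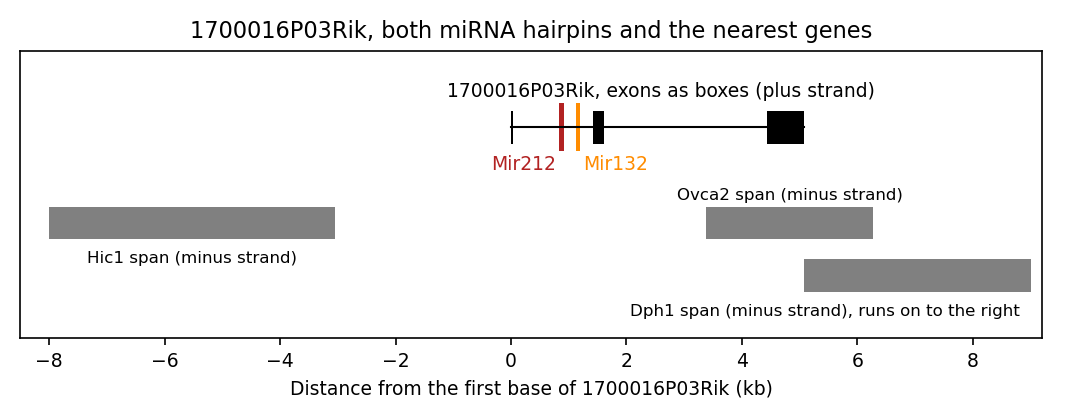
Map of 1700016P03Rik by distance from its first base (kb), with its exons as black boxes, the Mir212 and Mir132 hairpins as coloured bars, and the spans of Hic1, Ovca2 and Dph1 on the opposite strand as gray bars. Both hairpins sit in intron 1, and exon 3 (641 bases) falls inside Ovca2.

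The deposited value is 1 mean per genotype, but for this gene the whole reads of each library could be recovered from the decimals of the means. The host had 102 and 140 reads in the Unc80 G/G libraries, against 75 and 52 reads in the Unc80 S/S libraries. As levels, these were 4.02 and 5.66 CPM in Unc80 G/G, with exact 95% Poisson intervals of 3.28 to 4.89 and 4.76 to 6.68, against 2.83 and 2.06 CPM in Unc80 S/S, with intervals of 2.23 to 3.55 and 1.54 to 2.70. In each pair the first value belongs to the library with more counted reads, because the recovered libraries carry no replicate number. The reads of a library rest on the pair of counted totals chosen for each genotype, while the means do not. Both Unc80 G/G libraries were above both Unc80 S/S libraries, but the counting intervals of the nearest pair overlapped. The same order of genotypes held for 17.7% of the 2219 genes whose reads could be recovered, host included. These intervals cover counting error only, not differences between pools of mice.

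The mean was 4.84 ± 1.16 CPM in Unc80 G/G and 2.45 ± 0.546 CPM in Unc80 S/S (SD, n = 2 libraries each). The log2 ratio of the means was 0.98. Taken library by library, the fold ran from 1.42 (lowest Unc80 G/G over highest Unc80 S/S) through 1.95 and 1.998 to 2.75. The gap between the genotypes was thus about as wide as the gap within them at its narrowest. The libraries of 1 genotype differed by 1.41-fold in Unc80 G/G and by 1.37-fold in Unc80 S/S. This spread was larger than that of 89.5% (Unc80 G/G) and 93.7% (Unc80 S/S) of the 381 other genes of similar abundance with recovered reads, whose medians were 1.15-fold and 1.12-fold. The host therefore varied more between like libraries than most genes of its level. In bulk RNA, more cells that express the gene and more RNA per cell cannot be told apart.

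**Figure D2:**
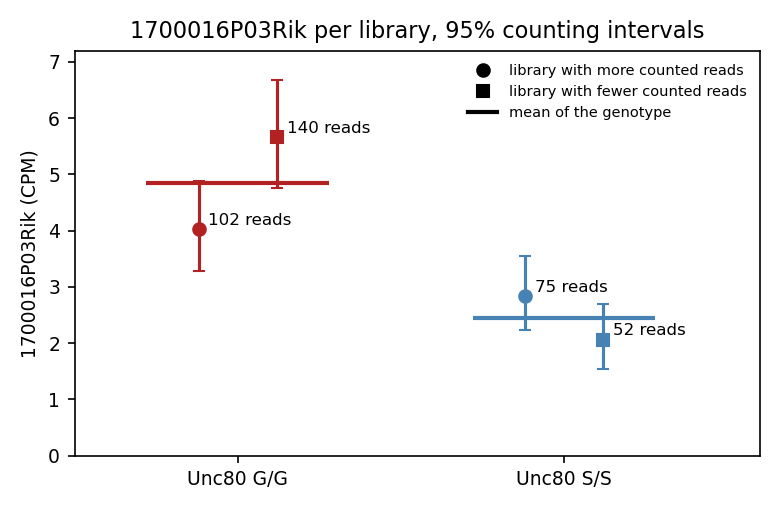
Level of 1700016P03Rik (CPM) in the 2 Unc80 G/G and the 2 Unc80 S/S libraries, with exact 95% Poisson intervals, the recovered reads beside each point and the mean of the genotype as a line. The Unc80 G/G libraries (4.02 and 5.66 CPM) lie above the Unc80 S/S libraries (2.83 and 2.06 CPM).

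The level of the host was low among the genes of the table. Its mean exceeded that of 20.6% of genes in Unc80 G/G and of 11.2% in Unc80 S/S. The transcript is short, and per length its level was 5.61 CPM per kb of exon in Unc80 G/G and 2.83 CPM per kb in Unc80 S/S. That was above 50.3% and 31.8% of the 15594 genes with an exon length, so the host was near the middle of the order per length in Unc80 G/G. This place is uncertain, because the length includes exon 3, shared with Ovca2, and how reads there were counted is not given.

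Placed by ratio, the host stood at the top of the genes of its abundance. Of 1502 other genes whose mean over both genotypes lay within 0.5 log2 units (2.58 to 5.15 CPM), 0 had a higher log2 ratio, and their 5th to 95th percentiles ran from −0.27 to 0.30 around a median of 0.00. In that window 7.99% of the genes were past 1.2-fold higher in Unc80 G/G and 5.39% past 1.2-fold lower. Over the whole table, 3.38% of genes were past 1.2-fold higher and 2.36% past 1.2-fold lower. The host ranked 5th of all genes in the table, behind Ttr (log2 ratio 2.05), Tafa1 (1.22), Capn11 (1.08) and H2-Q7 (1.02), each with a lower mean level than the host. The lowest mean over both genotypes in the table was 1.01 CPM, and Tafa1 (1.13 CPM) and H2-Q7 (1.08 CPM) lay near it. Since the gene was picked on this contrast, its rank describes it and tests nothing.

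The genes just below it in the window were a mixed set. Fam205a2 averaged 4.09 CPM in Unc80 G/G and 2.10 CPM in Unc80 S/S (log2 ratio 0.96). Htr2c, the serotonin 2C receptor, averaged 6.00 CPM in Unc80 G/G and 3.28 CPM in Unc80 S/S (0.87), Gm15319 averaged 4.44 and 2.72 CPM (0.70), and Col5a3, a type V collagen chain, averaged 4.15 and 2.71 CPM (0.62), in the same order of genotypes. Reads per library were not recovered for these, and Fam205a2 has near-identical copies, so its reads are uncertain. Egr4, a zinc finger transcription factor induced by neuronal activity, was the gene of this group with recovered reads. It had 155 and 161 reads in Unc80 G/G, against 104 and 98 reads in Unc80 S/S, a fitted log2 difference of 0.69 (adjusted p = 0.0660, edgeR's quasi-likelihood test). The Egr4 libraries did not overlap, as for the 17.7% of recovered genes higher in both Unc80 G/G libraries. They lay closer together within each genotype than those of the host, but the adjusted p missed the threshold of 0.05. With TMM normalization edgeR called Egr4 (adjusted p = 0.0223).

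By distance in log2 CPM over both genotype means, the genes most like the host were Gm15319 (0.20 log2 units away), Col5a3 (0.27), Rps2-ps6 (0.28), Gm6475 (0.32) and Fam205a2 (0.33). Rps2-ps6 and Gm6475 are processed pseudogenes, whose reads are uncertain because the parent genes share their sequence. This likeness rests on 2 values a gene.

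**Figure D3:**
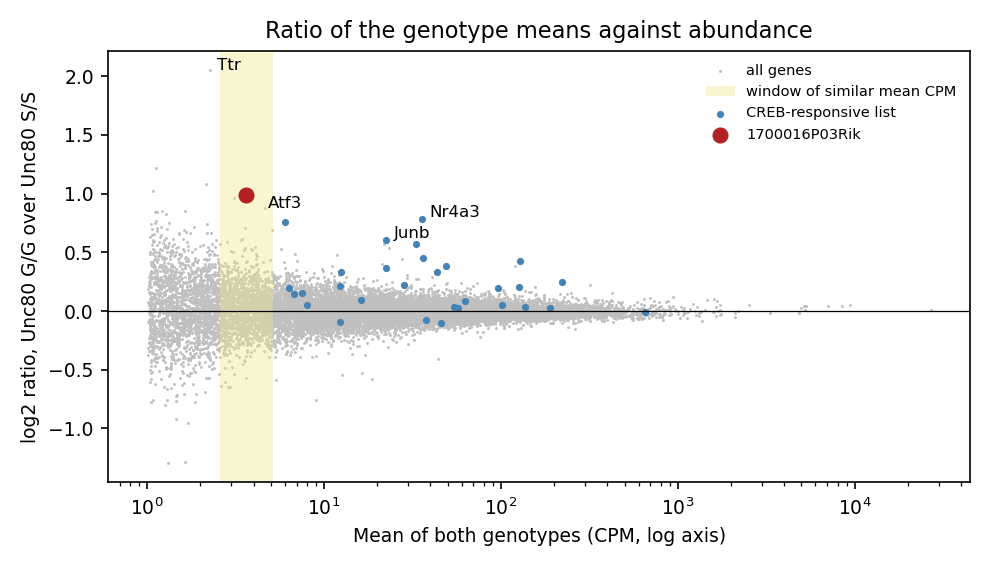
Log2 ratio of the genotype means, Unc80 G/G over Unc80 S/S, against the mean of both genotypes (CPM, log axis) for all 15818 genes, with the window of similar abundance shaded, the CREB-responsive list in blue and 1700016P03Rik in red. The host (0.98) lies above every other gene of the shaded window.

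None of the measured genes around the host had a ratio near its own. Of the 7 annotated genes within 100 kb, 2 are the hairpins Mir212 and Mir132, which are not in the table. The other 5 were in the table, and 0 of them were past 1.2-fold in either direction. Over all genes 3.38% were past it higher and 2.36% lower, so among 5 genes a count of 0 lies near those shares. Hic1, a transcriptional repressor on the minus strand upstream of the host, had 44 and 49 reads in Unc80 G/G, against 67 and 39 reads in Unc80 S/S. Its libraries overlapped (log2 ratio −0.13, adjusted p = 0.990, edgeR). Rtn4rl1, a relative of the Nogo receptor, had 398 and 377 reads in Unc80 G/G, against 393 and 443 reads in Unc80 S/S, and also overlapped. Smg6, a nuclease of nonsense-mediated decay, averaged 55.7 CPM in Unc80 G/G and 56.2 CPM in Unc80 S/S. Dph1, which acts in the synthesis of diphthamide on elongation factor 2, averaged 5.44 CPM in Unc80 G/G and 5.41 CPM in Unc80 S/S.

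CREB drives the host, so CREB and the proteins that switch it on were examined next, as levels of their mRNA. Of the 20 listed genes 1 was past 1.2-fold higher in Unc80 G/G and 0 were past 1.2-fold lower, against 3.38% and 2.36% of all genes. All 20 averaged at least 5 CPM, and at that level 0.624% of genes were past 1.2-fold higher and 0.448% lower. The median log2 ratio of the 20 was −0.01, the same as over all genes (−0.01). Creb1 itself averaged 106.8 CPM in Unc80 G/G and 103.6 CPM in Unc80 S/S (0.04). The gene past the fold was Sik1, a kinase that is itself CREB-induced and restrains the CREB coactivators, at 48.3 CPM in Unc80 G/G and 38.3 CPM in Unc80 S/S (0.34). The next largest ratios were Camk4, a calcium-dependent CREB kinase (27.0 CPM in Unc80 G/G and 24.1 CPM in Unc80 S/S, 0.17), Rps6ka4 (0.13), Mapk3 (−0.10), Crtc3 (−0.10) and Crem (0.09). No gene of this list had recovered reads, and CREB phosphorylation was not measured.

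The listed CREB-responsive genes lay mostly above 0. Of 30 genes, 26 had a ratio above 0, 10 were past 1.2-fold higher in Unc80 G/G and 0 past 1.2-fold lower, with a median log2 ratio of 0.19. Over all other genes 47.2% had a ratio above 0, and 3.38% of all genes were past 1.2-fold higher and 2.36% lower. All 30 averaged at least 5 CPM, and at that level 46.0% of other genes were above 0, 0.624% past 1.2-fold higher and 0.448% lower. This list was drawn up with results of the same contrast known, so its direction is no independent evidence. The largest ratio was that of Nr4a3, a nuclear receptor of the NR4A family, at 45.3 CPM in Unc80 G/G and 26.3 CPM in Unc80 S/S (0.78). Atf3, a stress- and activity-induced transcription factor, averaged 7.61 CPM in Unc80 G/G and 4.50 CPM in Unc80 S/S (0.76). Fosb, a partner of Jun proteins in AP-1, averaged 39.8 CPM in Unc80 G/G and 26.8 CPM in Unc80 S/S (0.57). Nr4a2 and Nr4a1 followed with log2 ratios of 0.45 and 0.43. None of the 30 exceeded the ratio of the host, and the set was not uniform: Npas4, a transcription factor induced by calcium entry, was at 0.04, and Bdnf, the neurotrophin that induces miR-132 in cultured neurons, was at −0.09.

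Reads per library were recovered for 4 CREB-responsive genes. Junb, an AP-1 subunit, had 663 and 696 reads in Unc80 G/G, against 534 and 392 reads in Unc80 S/S. Its libraries did not overlap, and it rose by 0.60 on the log2 scale (adjusted p = 0.0159, edgeR's quasi-likelihood test). edgeR called 2 of the 2218 other recovered genes (0.0902%), Junb and Ttr, and 115 had an unadjusted p under 0.05. Btg2, an antiproliferative gene, had 764 and 763 reads in Unc80 G/G, against 784 and 576 reads in Unc80 S/S, which did not overlap as CPM (adjusted p = 0.927, edgeR). Ier2, an immediate-early gene, had 147 and 192 reads in Unc80 G/G, against 193 and 115 reads in Unc80 S/S, and overlapped. Nptx2, a synaptic pentraxin, had 1141 and 1069 reads in Unc80 G/G, against 1242 and 1213 reads in Unc80 S/S, so both Unc80 G/G libraries were lower (adjusted p = 0.980, edgeR). Non-overlap as such was common: 17.7% of the recovered genes, host included, were higher in both Unc80 G/G libraries and 14.8% were lower in both. The call of Junb was lost in edgeR when either Unc80 G/G library was left out in turn, or the shallower Unc80 S/S library, and kept when the deeper Unc80 S/S library was left out (adjusted p = 0.0164).

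The order of the libraries within a genotype was not used in choosing the host. In Unc80 G/G the host was higher in the library with fewer counted reads, and in Unc80 S/S in the library with more. The exact 95% Poisson intervals of the host overlapped within each genotype, so its own order is not resolved from counting error. They were 3.28 to 4.89 and 4.76 to 6.68 CPM in Unc80 G/G, and 2.23 to 3.55 and 1.54 to 2.70 CPM in Unc80 S/S. Of the 4 recovered CREB-responsive genes, 3 had the same order in both genotypes (Junb, Btg2 and Ier2), as did Egr4, while 23.3% of the 2218 other recovered genes did. Egr4 entered this comparison through its high ratio in the window. Junb was at 26.2 and 28.1 CPM in Unc80 G/G, against 20.2 and 15.5 CPM in Unc80 S/S, with the library of more counted reads first. Btg2 was at 30.1 and 30.8 CPM in Unc80 G/G, against 29.6 and 22.8 CPM in Unc80 S/S. The order of Egr4 in Unc80 S/S rests on 3.93 against 3.88 CPM, and in Unc80 G/G on 6.12 against 6.51 CPM. In Unc80 G/G that of Btg2 rests on 764 against 763 reads. Counting intervals were not computed for these genes, so whether such small steps exceed counting error was not tested. The order of the libraries was looked at after the values were seen, and it is a description of 4 libraries with no test.

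**Figure D4:**
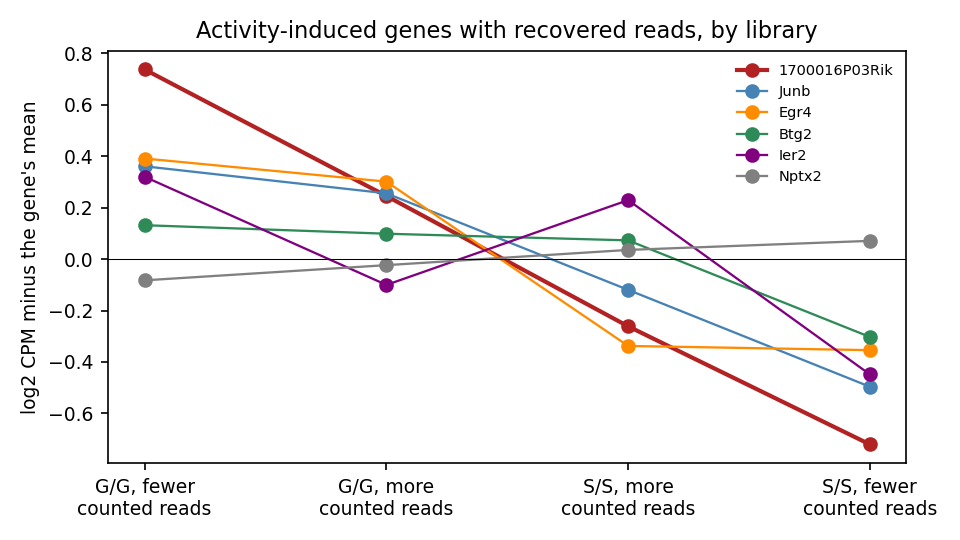
Log2 CPM minus the gene's mean over the 4 libraries, for 1700016P03Rik, Egr4 and the recovered CREB-responsive genes, with libraries arranged by the level of the host and Unc80 G/G on the left. Within each genotype Junb, Btg2, Ier2 and Egr4 step the way the host does, and Nptx2 steps the other way. Some steps are small, such as Egr4 in Unc80 S/S (3.93 against 3.88 CPM) and Btg2 in Unc80 G/G (30.8 against 30.1 CPM). The counting intervals of the host itself overlapped within each genotype.

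The machinery that turns the host into miRNAs showed ratios near 0. Of 18 genes of miRNA processing and silencing, 0 were past 1.2-fold in either direction (median log2 ratio 0.02), against 3.38% and 2.36% of all genes. All 18 averaged at least 5 CPM, and at that level only 0.624% of genes were past 1.2-fold higher and 0.448% lower. The ratios ran from −0.09 for Tarbp2, a partner of Dicer, to 0.12 for Mov10, a helicase of the silencing complex. Dicer1 averaged 133.3 CPM in Unc80 G/G and 127.2 CPM in Unc80 S/S (0.07), and Tnrc6b, a scaffold of silencing, 261.5 and 241.0 CPM (0.12). Drosha averaged 108.4 CPM in Unc80 G/G and 110.3 CPM in Unc80 S/S (−0.03). Ago4, the member with recovered reads, had 725 and 738 reads in Unc80 G/G, against 765 and 711 reads in Unc80 S/S, and overlapped.

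Other non-coding genes that carry a miRNA on the same strand were set beside the host. They are not all transcripts like it. Some are processed pseudogenes, among them Rpl19-ps6, the lowest of the set (−0.31), whose reads are uncertain. Of 55 such genes in the table, 2 were past 1.2-fold higher in Unc80 G/G and 2 past 1.2-fold lower, near the shares of all genes (3.38% and 2.36%). Their median log2 ratio was −0.00 with a range of −0.31 to 0.30, so 0 of them reached the host. The highest was Gm37233, with 83 and 98 reads in Unc80 G/G, against 66 and 85 reads in Unc80 S/S, which overlapped as CPM. Mir22hg, another activity-induced host, averaged 13.3 CPM in Unc80 G/G and 11.5 CPM in Unc80 S/S (0.21). Mir17hg, host of the miR-17-92 cluster, had 38 and 41 reads in Unc80 G/G, against 47 and 47 reads in Unc80 S/S, lower in both Unc80 G/G libraries (adjusted p = 0.990, edgeR). Of the 14 hosts with recovered reads, 3 were higher and 2 lower without overlap, against 17.7% and 14.8% of all recovered genes, and edgeR called 0 of them.

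**Figure D5:**
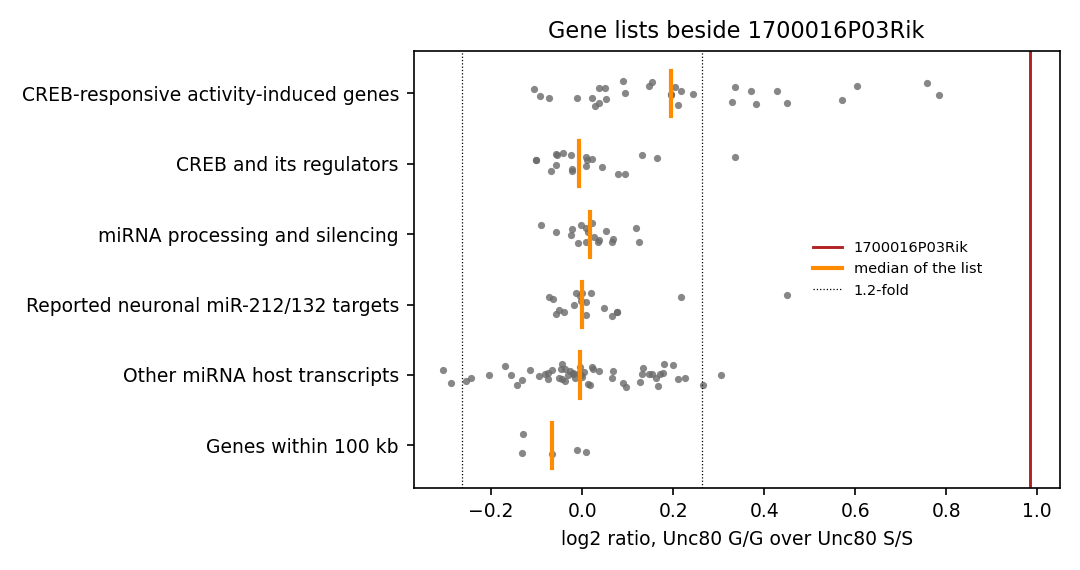
Log2 ratio of the genotype means, Unc80 G/G over Unc80 S/S, for each gene of 6 lists (points), with the list's median as an orange bar, 1.2-fold as dotted lines and 1700016P03Rik as a red line. The CREB-responsive genes have a median of 0.19, the medians of the other 5 lists lie between −0.07 and 0.02, and no listed gene reaches the host (0.98).

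The mRNAs that miR-212 and miR-132 are reported to repress in neurons were listed from background knowledge. Of 20 such genes 19 were in the table, 1 was past 1.2-fold higher in Unc80 G/G and 0 past 1.2-fold lower, against 3.38% and 2.36% of all genes, with a median log2 ratio of −0.00. All 19 averaged at least 5 CPM, and at that level 0.624% of genes were past 1.2-fold higher and 0.448% lower. Arhgap32 (p250GAP), a GTPase-activating protein that restrains dendrite growth, averaged 206.4 CPM in Unc80 G/G and 208.4 CPM in Unc80 S/S. Foxo3, a pro-apoptotic transcription factor, averaged 84.9 CPM in Unc80 G/G and 82.1 CPM in Unc80 S/S. The exception past the fold was Nr4a2, which is also on the CREB-responsive list, and Btg2 (0.22) stands on both lists too. The levels of the proteins were not measured.

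A match to the shared 3p seed could be read in 3′ UTR sequence of most of these genes. The 8mer GACTGTTA, which pairs with bases 2 to 8 and adds an A opposite base 1, was searched on the transcript strand of each gene's longest annotated 3′ UTR. It contains the shorter 7mer-m8 match GACTGTT. Of the 19 targets 6 held the 8mer and 17 the 7mer-m8. The 8mer sites of 4 of them are shown, as DNA in the transcript's direction with the match in capitals (GENCODE M21, GRCm38):
Ep300 (chr15:81652002-81652023, plus strand): tggatcactgtataGACTGTTA
Foxo3 (chr10:42186162-42186183, minus strand): cctaacccagcagaGACTGTTA
Itpkb (chr1:180424708-180424729, plus strand): tcctttcctcttggGACTGTTA
Spred1 (chr2:117179852-117179873, plus strand): ggtttcctagagcaGACTGTTA
The 6 genes with the 8mer had log2 ratios from −0.07 to 0.05, the lowest being Paip2, whose site is not shown. A match is a description of these letters, not a shown binding site.

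Across the transcriptome, the ratios of genes with the 8mer lay close to those of all genes. Of 13501 genes with an annotated 3′ UTR 409 held the 8mer, and their median log2 ratio was 0.0039, against −0.0061 over all 13501. Of the 409 genes, 9 (2.20%) were past 1.2-fold higher in Unc80 G/G and 2 (0.489%) past 1.2-fold lower, against 2.47% and 1.65% of the 13501. The 1882 genes with the 7mer-m8 had a median of −0.0023. Genes with a match have longer 3′ UTRs (median 2744 bases for the 8mer and 1448 bases over all).

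Markers of the bulb were present in both genotypes, and the lists for sensory axons, mitral or tufted neurons, interneurons, neuroblasts, glia, endothelium, cortex, striatum and red blood cells had summed levels in Unc80 G/G of 0.965 to 1.11 times those in Unc80 S/S. Sums follow the most abundant member: Drd1 in the striatum list (−0.38) and Neurod6 in the cortex list (−0.34) were past 1.2-fold lower in Unc80 G/G, all 4 cortex markers were below 0, and all 3 sensory axon markers were above 0 (up to 0.20). The choroid plexus list stood higher in Unc80 G/G. Of its 7 markers 6 were in the table, 4 were past 1.2-fold higher in Unc80 G/G and 0 lower, against 3.38% and 2.36% of all genes, or 8.42% and 6.14% of genes within 1 log2 unit of the host. The sum was 18.8 CPM in Unc80 G/G and 12.02 CPM in Unc80 S/S. Ttr, its defining marker, had 117 and 66 reads in Unc80 G/G, against 34 and 12 reads in Unc80 S/S. Kl did not follow (−0.17), and the libraries of Clic6 (0.41) and Kcnj13 (0.09) overlapped. Within Unc80 G/G the host was higher in the library where Ttr was lower, and within Unc80 S/S both were higher in the library with more counted reads. Htr2c, named above among the genes beside the host, is also a marker of that tissue. The part of choroid plexus RNA in the level of the host was not tested.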

How the data were processed

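Pooled olfactory bulb RNA of Unc80 G/G and Unc80 S/S mice was sequenced on an Illumina instrument with paired ends. Per the labels and the study's methods, the authors processed the reads with Partek on GRCm38 (mm10). For the aligner, annotation, counting, strand setting, normalization and test, nothing was given in the sources used here. The methods and labels name different library kits, that of the methods being stranded. The deposited table holds, for 15818 genes, 1 mean CPM per genotype, and also the authors' p-value, ratio and signed fold change (a score), which were not used. A deposited file per library gives its count of total reads (35694633 and 35465913 in Unc80 G/G, 35800890 and 38051810 in Unc80 S/S).

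The log2 ratio was that of the CPM means, with no pseudocount, and gene lists were counted past 1.2-fold. Each mean was also solved as 2 whole read counts, each divided by its library's counted reads, plus an offset of 0.0001 CPM that every value carries. A solution was accepted if a fit by chance had a probability under 0.0001. This gave reads per library for 2219 genes (14.0% of the table), with 37.8% recovered below 2 CPM against 5.62% from 50 CPM upwards, and counted totals of 25345718 and 24738078 reads in Unc80 G/G and 26479648 and 25238203 in Unc80 S/S. Several candidate pairs of totals were tried. Of those that solved about as many low values, the pair whose libraries had the nearest levels was taken. In Unc80 S/S the median difference between libraries was 0.0328 CPM, against 0.705 CPM for the next best candidate. In Unc80 G/G it was 0.0334 CPM, and no other candidate remained. The genotypes were tested on these counts in edgeR 4.0.16 (quasi-likelihood, genes with at least 10 reads in at least 2 libraries, Benjamini-Hochberg adjustment), with DESeq2 1.42.0 and limma 3.58.1 on log2(CPM + 1) as alternatives (R 4.3.3). Recovery and fit were tested on simulated data. Replicates are separate libraries, and p-values measure only the spread between them.

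1700016P03Rik and the lists were chosen with earlier results of these data known. The genes named are the host, the 5 nearest by both means, the 5 of highest ratio in its window, table genes within 100 kb, up to 6 members per list of largest absolute log2 ratio, and list members called by edgeR. Other recovered list members, Creb1, Npas4, Bdnf, Dicer1, Drosha, Arhgap32, Foxo3, Itpkb, Spred1, Kl, Drd1, Neurod6 and the genes ranked above the host were named after their values were seen. Of the symbols, 15594 named 1 gene of GENCODE M21. Software was Python 3.11.15 with scipy 1.17.1, pandas 2.3.3, numpy 2.4.6 and matplotlib 3.10.9.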

Additional observations from a re-analysis of the deposited data

How the results depend on the processing

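The log2 ratio of 1700016P03Rik stayed positive under all 12 alternatives, from 0.72 to 1.23 without 1 library in turn, and at 0.76 with a pseudocount of 1 CPM. Its place by ratio was at least the 99.9th percentile under all 8 alternatives. These included all genes and genes of at least 5 CPM, which are not sets of similar abundance. The host was picked on this contrast, so the stable place describes it and tests nothing. Over the 82 distinct genes of the 4 fixed lists, 10 were past 1.2-fold higher in Unc80 G/G, 19 past 1.1-fold and 3 past 1.5-fold, and 0 were lower past any fold tried. edgeR called 2 recovered genes, TMM normalization gave 5, DESeq2 gave 1, and leaving out 1 library gave 0 to 2. Leaving out a library leaves 1 sample in a genotype, assumed to vary like the other group. No paired analysis was possible because the recovered libraries carry no replicate number. With 52 to 140 reads of the host per library and 2 libraries per genotype, counting error and the spread between pools both limit the size of its ratio. The recovered genes lean to low abundance, and the recovered reads depend on the choice among pairs of library totals, while the genotype means do not.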
